A study of Rattus norvegicus and Mus musculus with 3 samples.

Results

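The 10 genes described here encode neuropeptide precursors of the hippocampus and were followed through 3 hippocampal RNA-seq libraries. They were taken by symbol, ignoring case, and are Sst, Cort, Npy, Cck, Vip, Penk, Pdyn, Cartpt, Grp and Nts. All 10 were listed in every table, among 30438 genes of the rat tables and 34714 of the mouse table. The 2VO library came from a rat of 3 to 4 months with the genotype given as WT. The wild-type mouse library came from a mouse of the 3xTg-AD line, 6 months old and of WT genotype. The Sham library came from a rat of 3 to 4 months, also of WT genotype. By usage in this field, 2VO is a closure of the common carotid arteries on both sides that lowers blood flow to the brain, and Sham is the surgery alone. 3xTg-AD is a transgenic model of Alzheimer's disease, of which transgenic animals were not analysed here. Rat strain, sex, time after surgery and any pooling of animals are not stated in the labels.

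Neuropeptides are cut from larger precursors in dense-core vesicles by proprotein convertases and carboxypeptidase E, and act on G protein-coupled receptors. In the hippocampus Sst, Npy, Cck and Vip mark classes of GABAergic interneurons, some of which also make Cort. Penk and Pdyn encode opioid precursors, and Pdyn is known from dentate granule cells and their mossy fibres. Several of these genes are classic targets of cAMP signalling, which acts through the DNA letters called the cAMP response element.

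In the 2VO library Cartpt and Cort were the neuropeptide genes furthest below the Sham library, and Grp was the furthest above it. Cartpt, the precursor of cocaine- and amphetamine-regulated transcript, was 0.375 units in 2VO and 4.03 in Sham. The somatostatin relative Cort was 4.74 in 2VO and 11.99 in Sham, while Sst itself was 86.7 and 96.6. Grp, the gastrin-releasing peptide precursor, was 8.60 in 2VO and 4.16 in Sham. The other 7 genes lay within 1.5-fold of each other in the 2 rats. The wild-type mouse stood apart from the Sham rat by at least 2-fold in Nts, Pdyn and Cartpt, which were lower in the mouse, and in Grp, Sst and Npy, which were higher.

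The promoter letters of 3 of these genes are shown because Cartpt and Cort had the lowest ratios of the set and Sst is the closest relative of Cort. Each window is from RefSeq's GRCr8 rat assembly and runs from 250 bases before to 50 bases after an annotated start. The Cartpt window is chr2:32991186-32991485 on the minus strand, the Cort window chr5:164845075-164845374 on the minus strand, and the Sst window chr11:90461296-90461595 on the plus strand. Capitals mark the cAMP response element letters TGACGTCA, or the shorter TGACG, on either strand (CGTCA when read on the opposite strand).
Cartpt: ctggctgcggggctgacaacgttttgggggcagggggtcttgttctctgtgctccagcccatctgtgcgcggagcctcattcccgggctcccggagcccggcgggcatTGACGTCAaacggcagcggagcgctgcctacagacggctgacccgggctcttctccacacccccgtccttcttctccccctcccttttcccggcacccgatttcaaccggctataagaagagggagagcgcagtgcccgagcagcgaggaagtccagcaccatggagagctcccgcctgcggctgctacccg
Cort: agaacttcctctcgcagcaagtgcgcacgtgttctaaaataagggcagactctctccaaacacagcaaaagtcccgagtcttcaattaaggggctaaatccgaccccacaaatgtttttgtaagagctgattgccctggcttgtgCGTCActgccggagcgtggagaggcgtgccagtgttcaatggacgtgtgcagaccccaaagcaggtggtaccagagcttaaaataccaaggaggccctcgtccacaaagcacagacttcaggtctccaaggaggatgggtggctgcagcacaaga
Sst: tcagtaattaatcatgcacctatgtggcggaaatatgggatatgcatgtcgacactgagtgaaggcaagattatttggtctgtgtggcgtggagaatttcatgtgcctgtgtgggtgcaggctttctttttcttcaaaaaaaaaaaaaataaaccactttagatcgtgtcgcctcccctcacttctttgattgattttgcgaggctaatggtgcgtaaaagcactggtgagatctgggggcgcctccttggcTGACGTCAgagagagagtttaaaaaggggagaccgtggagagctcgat
Cartpt and Sst held TGACGTCA, starting 142 bases before the annotated start in Cartpt and 2 bases after it in Sst. Cort held only the shorter letters, on the opposite strand, 105 bases before its annotated start. The starts used for Cartpt and Cort lie 559 and 672 bases inside the outer edge of their annotated genes, so other starts exist. Whether the annotated start of Sst, at the outer edge of its gene, is the one used in the hippocampus was not tested. Among the 8 neuropeptide genes with a window in the table, 2 held TGACGTCA and 6 held TGACG, which is itself part of TGACGTCA. Of all 33469 windows 1.83% held TGACGTCA and 21.2% held TGACG. The remaining windows were those of Npy, Vip, Pdyn, Grp and Nts, and Cck and Penk had none in the table. These letters are a description of the windows, and any bearing of them on the ratios between the rats was not tested.

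The tables hold normalized expression values of an unstated unit, and the depth behind them is unknown. They summed to 333941 in 2VO, 268889 in the mouse and 325636 in Sham. Whether they were divided by gene length is not stated, so levels are compared between libraries for a gene and not between genes. Each group holds 1 library, so no difference has a replicate check or a test, and each comparison is of libraries, not of conditions. Ratios were computed after adding 1 unit to each value, which shrinks the differences of low genes. A gene entered a comparison when its values in the libraries compared averaged 1 unit or more. The genes were selected on earlier results of these libraries, namely their values and 2VO to Sham ratios, so the ratios are a description and support nothing further. Of 13 markers of hippocampal pyramidal and granule cells 11 reached that mean in the rats, with the vesicular glutamate transporter gene Slc17a7 at 682 units in 2VO and 715 in Sham. Of these 11 markers 8 were lower and 3 higher in 2VO, with a median log2 ratio of -0.07, where 58.7% of all genes were higher. Among the lower were Wfs1 at 111 and 169, which passed 1.5-fold, Rgs14 at 36.7 and 55.0 and Pou3f1 at 24.6 and 34.7. Slc17a7 and C1ql2, the latter at 95.8 and 96.6, were lower by little. The higher members were Neurod6, Fibcd1 at 20.7 and 18.3 and Calb1 at 35.0 and 25.6. Cerebral cortex markers reached a mean of 1 unit in 7 of 8 cases. They summed to 78.6 units in 2VO and 55.3 in Sham, none was at 0, and Lamp5 (27.3 and 12.2) and Fezf2 (12.7 and 6.62) were over 1.5-fold higher in 2VO. Most of the gap in the cortex sum came from Lamp5, which is also on the interneuron list below, and Fezf2. Tle4 (14.9 and 14.3) and Cux2 (3.92 and 3.62) were close, and Tbr1 (12.5 and 13.0) was lower in 2VO. Of the other marker sums, that of oligodendrocytes was 4156 in 2VO and 3335 in Sham, of choroid plexus 8.27 and 3.02, of astrocytes 1009 and 1356, and of microglia 68.9 and 87.5. The choroid plexus gap came mostly from Ttr, at 4.75 and 0.434, while Kcne2 was lower in 2VO, at 1.52 and 1.66. The astrocyte gap came from Gfap, at 360 and 778, while Aldoc was higher in 2VO, at 379 and 302. Among the microglial markers P2ry12 went the other way, at 8.83 and 5.49. The part of these cells and regions in the results below was not tested.

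**Figure D1:**
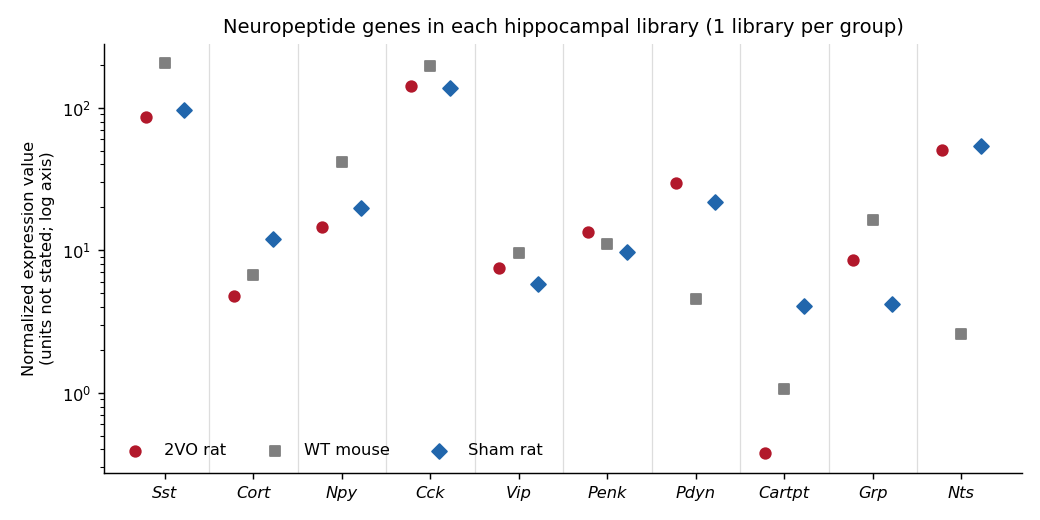
Normalized expression value (log axis, units not stated) of each neuropeptide gene in the 2VO rat (circles), the wild-type mouse (squares) and the Sham rat (diamonds), 1 library each. Cartpt and Cort are lowest in 2VO, and Nts, at 2.59 units, is far lower in the mouse than in either rat.

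The comparison of the 2VO rat with the Sham rat asks how the hippocampal transcripts of the vascular model differ. All 10 genes passed the filter: 5 were higher and 5 lower in 2VO. At 1.5-fold 1 was higher, where 1.51% of all 13550 genes were, and 2 were lower, where 0.967% of all genes were. Since the genes were chosen with this comparison known, nothing is read from these shares. The median log2 ratio was -0.02 over the neuropeptide genes and 0.04 over all genes, of which 58.7% were higher in 2VO. Of all genes past 1.5-fold 61.0% were higher in 2VO, and 45.3% with the libraries scaled to equal upper quartiles.

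**Figure D2:**
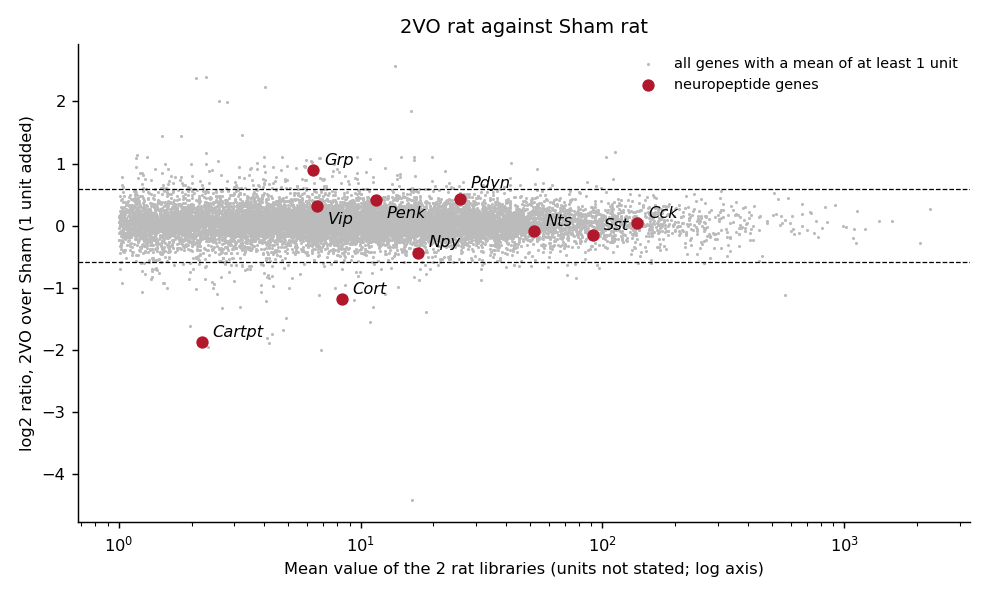
Log2 ratio of 2VO over Sham (1 unit added) against the mean of the 2 rat libraries (log axis) for the 13550 genes averaging 1 unit or more (grey) and the neuropeptide genes (red). Dashed lines mark 1.5-fold. Cartpt and Cort lie below the lower line and Grp above the upper, and the other genes lie between the lines.

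Cartpt had the lowest ratio of the set. Its 0.375 units in 2VO against 4.03 in Sham gave a log2 ratio of -1.87, the fifth lowest of the genes compared. Without the added unit the Sham value was 10.8 times the 2VO value. The mouse value, 1.06, lay between those of the rats. Cartpt is a low gene in these libraries, and at means of 1 to 5 units 1.67% of 4317 genes were at least 1.5-fold lower in 2VO, compared with 0.639% of 9233 genes at 5 units or more. With 4 units added its log2 ratio was -0.88. Cartpt is abundant in the hypothalamus and the striatum, so the markers of those regions are given beside it. Hypothalamic markers reached the filter in 3 of 7 cases and summed to 5.37 units in 2VO and 5.62 in Sham. The hypothalamic peptide genes Pmch and Agrp were 0.0425 and 0.418 units in 2VO and 0.161 and 0.378 in Sham. Trh, the 1 hypothalamic marker past 1.5-fold, was lower in 2VO at 0.781 and 1.68, and Oxt was higher at 0.511 and 0.0594, below the filter. Striatal markers summed to 54.2 and 57.3, nearly all of it from Ppp1r1b, while Drd2 was 0.523 in 2VO and 0.703 in Sham. No marker of either list was at 0 in a rat library. In bulk tissue fewer cells of a type and less RNA per cell cannot be told apart.

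Cort and Sst encode related precursors whose mature peptides share most of their sequence and bind the same Sstr receptors. Cort was 4.74 units in 2VO and 11.99 in Sham, a log2 ratio of -1.18 and the 18th lowest of all genes compared. Sst, the marker of a large class of dendrite-targeting interneurons, was 86.7 in 2VO and 96.6 in Sham, a log2 ratio of -0.15. The relatives therefore differed in ratio: per unit of Sst there were 0.0546 units of Cort in 2VO, 0.0328 in the mouse and 0.124 in Sham. By this quotient the Sham rat stood above the 2VO rat. The mouse quotient rests on another annotation, and division by gene length is not stated, so it is a description only. In RefSeq's GRCr8 rat annotation no other gene overlaps Cort, although the processing notes name another assembly, mRatBN7.2. Their receptor genes did not go the same way. Sstr1, a receptor of this family, was 3.82 in 2VO and 1.34 in Sham, a log2 ratio of 1.05. Sstr4 was 10.5 and 9.04, Sstr3 was 8.46 and 6.20, and Sstr2 was 7.50 and 6.14, each higher in 2VO by less than 1.5-fold. Sstr5 was listed at 0 in both rats.

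Npy, the neuropeptide Y precursor of another interneuron set that overlaps with the Sst cells, was 14.5 units in 2VO and 19.9 in Sham, a log2 ratio of -0.43. Only 2.13% of the genes compared had a lower ratio, although it stayed within 1.5-fold. Per unit of Sst it was 0.167 in 2VO and 0.206 in Sham. Its presynaptic receptor gene Npy2r went the other way, at 4.25 in 2VO and 2.04 in Sham, a log2 ratio of 0.79. The receptor genes Npy1r and Npy5r were 3.17 and 1.54 in 2VO and 2.62 and 1.01 in Sham, and Npy4r was listed at 0.0162 in 2VO and at 0 in Sham.

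Cck and Vip, which mark perisomatic and interneuron-targeting classes of interneurons, did not follow Npy. Cck, also made by pyramidal cells, was 141 units in 2VO and 137 in Sham, a log2 ratio of 0.05 close to that of all genes. With equal upper quartiles the Cck ratio was on the other side of 0, at -0.03. Vip was 7.45 in 2VO and 5.80 in Sham, a log2 ratio of 0.31. The brain receptor of cholecystokinin, Cckbr, was 3.32 and 2.48, and Cckar was listed at 0 in 2VO and 0.0274 in Sham. The Vip receptor genes Vipr1 and Vipr2 were 2.92 and 1.01 in 2VO and 2.44 and 1.02 in Sham. Adcyap1r1, which prefers the related peptide PACAP, was 41.1 and 37.3.

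The opioid precursors moved by like amounts. Penk, which encodes the enkephalins, was 13.4 units in 2VO and 9.78 in Sham, and Pdyn, which encodes the dynorphins, was 29.7 and 21.8. The Pdyn values carry a reservation, since the model gene LOC120101661 overlaps Pdyn in RefSeq's GRCr8 rat annotation. That gene is not listed in either rat library, and the processing notes name another assembly, mRatBN7.2. The log2 ratios of Penk and Pdyn were 0.42 and 0.43, both higher in 2VO and both within 1.5-fold. The quotient of Penk to Pdyn was accordingly close in the rats, at 0.451 in 2VO and 0.449 in Sham, and 2.40 in the mouse. The dentate granule cell markers Prox1 and C1ql2 were 14.8 and 95.8 in 2VO and 17.2 and 96.6 in Sham, so neither was higher with Pdyn. The granule cell gene Calb1 was higher, at 35.0 and 25.6. No opioid receptor gene reached a mean of 1 unit: the delta receptor gene Oprd1 was 1.19 in 2VO and 0.779 in Sham, the mu receptor gene Oprm1 was 0.509 and 0.416, and the kappa receptor gene Oprk1 was 0.147 and 0.129.

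Grp had the highest ratio of the set, at 8.60 units in 2VO and 4.16 in Sham. Its log2 ratio of 0.89 was the 55th highest of all genes compared. At means of 5 units or more 1.05% of all genes were at least 1.5-fold higher in 2VO, and 2.5% at means of 1 to 5 units. The mouse value, 16.2, was above both rats. Its receptor gene Grpr was 0.511 in 2VO and 0.118 in Sham, below the filter. Nts, the neurotensin precursor and a marker of the subiculum, was 50.7 in 2VO and 53.9 in Sham, a log2 ratio of -0.09. The other subiculum and retrohippocampal markers were likewise close, with Slc17a6 at 3.78 and 4.13, Ntng2 at 14.4 and 14.8 and Fn1 at 1.27 and 1.31. Tshz2 was the exception, at 8.82 in 2VO and 3.81 in Sham. Of the neurotensin receptor genes, Ntsr2, found mainly in astrocytes, was 60.3 and 59.4, the sorting receptor gene Sort1 was 102 and 117, and Ntsr1 was 0.276 and 0.205.

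Receptor genes of these peptides were thus higher in 2VO in 11 of 13 measured members, with a median log2 ratio of 0.20, against 58.7% higher and a median of 0.04 over all genes. With equal upper quartiles 10 of 13 were higher and the median was 0.15. Only Sstr1 and Npy2r passed 1.5-fold higher, and 0 passed it lower. Of all genes 1.51% passed it higher and 0.967% lower. At means of 1 to 5 units, where Sstr1 and Npy2r lie, these shares were 2.5% and 1.67%. The genes of precursor processing, which also include an inhibitor, a chaperone and an amidating enzyme, were less uniform. Of 11 measured 7 were higher and 4 lower, and their median was 0.06 as deposited and -0.0049 with equal upper quartiles. The 4 lower were Pcsk1n, Qpct, Pcsk6 and Pam. Of the convertase genes only Pcsk6 was lower, at 7.35 and 7.88, and Pcsk1 was near equal, at 2.10 and 2.09. Pcsk1n, which encodes proSAAS, an inhibitor of the convertase Pcsk1, was the member past 1.5-fold, at 210 units in 2VO and 318 in Sham. Pcsk2 was 81.2 and 63.6 and its chaperone Scg5 was 220 and 181. Cpe, which trims the cut peptides, was 785 and 742, and the amidating enzyme gene Pam was 66.2 and 66.4. Dense-core vesicle genes were higher in 10 of 12 measured members with a median of 0.10 and 0 past 1.5-fold, or in 9 with a median of 0.03 with equal upper quartiles. The granin genes Chgb and Scg2 and the secretogranin Scg3 were 192, 104 and 106 in 2VO and 179, 97.3 and 95.0 in Sham, and the vesicle protein gene Ptprn was 158 and 155. Peptidase genes, which inactivate peptides, were higher in 7 of 9 with a median of 0.09 and 0 past 1.5-fold, or in 6 with a median of 0.03 with equal upper quartiles. Among them Npepps was 47.9 and 44.7, Thop1 was 16.7 and 18.6, Dpp3 was 15.6 and 15.1 and Ece2 was 11.2 and 14.1.

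**Figure D3:**
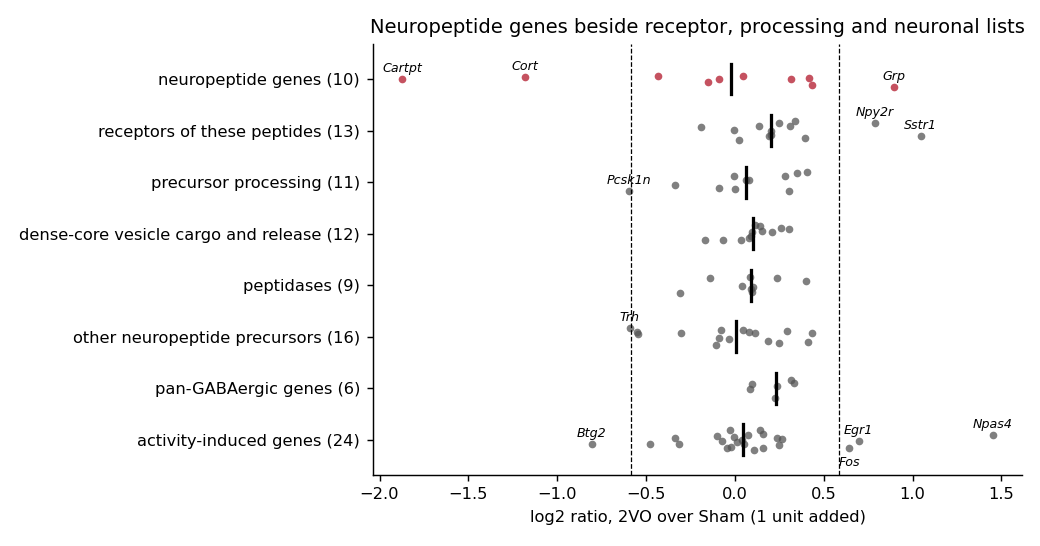
Log2 ratio of 2VO over Sham (1 unit added) for each gene averaging 1 unit or more, by list, with the number of genes in brackets. Vertical bars are list medians, dashed lines mark 1.5-fold, and genes past it are named. The neuropeptide genes spread from -1.87 to 0.89 around a median near 0, while the dense-core vesicle genes and the peptidase genes all stay between the dashed lines.

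Other neuropeptide precursors were measured in 16 of 53 listed genes, split into 8 higher and 8 lower, where 58.7% of all genes were higher. The median log2 ratio of the 16 was 0.01, or -0.05 with equal upper quartiles. Trh, the thyrotropin-releasing hormone precursor, was the 1 member past 1.5-fold, at 0.781 units in 2VO and 1.68 in Sham. The nociceptin precursor Pnoc was 5.03 and 7.79 and the bombesin relative Nmb was 6.75 and 10.3, both lower in 2VO by slightly less than 1.5-fold. With equal upper quartiles 3 of the 16, Trh, Pnoc and Nmb, were at least 1.5-fold lower. The count was also 3 with median-of-ratios scaling and 2 when centred on a lowess trend. With equal sums without the 50 most abundant genes it was 1. As deposited 0.967% of all genes were at least 1.5-fold lower, and the share under the other scalings is not given here. Agt, the angiotensinogen gene of astrocytes, was 64.9 and 69.1, the neurokinin B precursor Tac3 was 12.5 and 13.6, and Nucb2 was 8.13 and 7.84.

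General genes of GABAergic neurons stood on the other side of 0 from Sst, Npy and Cort. All 6 of the pan-GABAergic list were higher in 2VO, where 58.7% of all genes were. The list had a median log2 ratio of 0.23 and 0 past 1.5-fold, and all 6 stayed higher under each other scaling. The GABA synthesis genes Gad1 and Gad2 were 49.1 and 31.2 in 2VO and 39.2 and 26.2 in Sham. Slc32a1, which loads GABA into vesicles, was 29.1 in 2VO and 27.3 in Sham. Per unit of Gad1, Sst was 1.77 in 2VO and 2.46 in Sham, Npy was 0.296 and 0.508, and Cort was 0.0966 and 0.306. Vip per unit of Gad1 was 0.152 and 0.148. Taken relative to the pan-GABAergic median, the log2 ratio of Npy was -0.66 and so past 1.5-fold, and that of Sst was -0.39. A wider list of interneuron genes, which includes these 6, had 29 of 35 measured members higher in 2VO, or 27 with equal upper quartiles. As deposited, the share over all genes was again 58.7%. Sncg was 24.4 and 3.26, Lamp5 has been given above, and the calretinin gene Calb2 was 6.29 and 3.44. The parvalbumin gene Pvalb was 37.0 and 37.6, and Cnr1, the cannabinoid receptor gene of Cck cells, was 36.9 and 32.6.

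Genes induced by neuronal activity, a class to which Penk, Pdyn and Npy are also linked, had 14 of 24 measured members higher in 2VO. That share was close to the 58.7% of all genes. The median log2 ratio of the 24 was 0.05, or -0.02 with equal upper quartiles. Past 1.5-fold higher stood Npas4, Egr1 and Fos, at 3.11, 33.0 and 6.86 units in 2VO and 0.502, 19.9 and 4.03 in Sham. Of all genes 1.51% were past 1.5-fold higher and 0.967% lower. With equal upper quartiles 2 of these passed, without Fos. Btg2 was past it lower, at 6.84 and 12.7. The other abundant members were closer together, with Jun at 31.7 and 32.8, Arc at 31.3 and 27.9 and Junb at 30.1 and 25.4. Bdnf was 7.59 and 9.87.

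**Figure D4:**
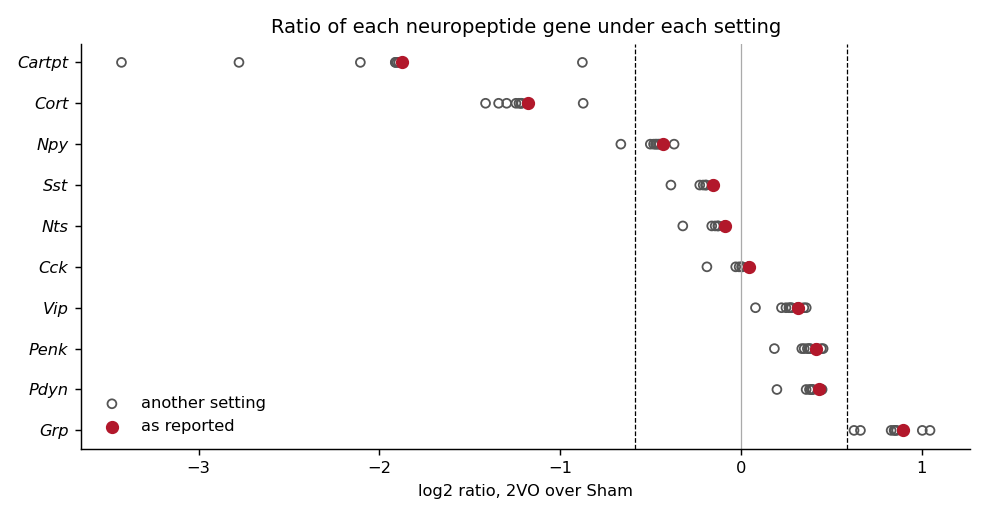
Log2 ratio of 2VO over Sham for each neuropeptide gene as reported (red) and under each other setting (open circles), with dashed lines at 1.5-fold. Cartpt and Cort stay below the lower line and Grp above the upper in every setting that kept them (a filter at 5 units removes Cartpt), and Npy crosses the lower line only relative to the pan-GABAergic median.

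The wild-type mouse was set beside the Sham rat as a comparison of levels. The libraries differ in species, age, annotation and the surgery that Sham denotes by usage, none of which can be told apart from the others. The 2VO comparison and this comparison share the Sham library. Of the 10 genes 3 were at least 2-fold higher in the mouse, where 6.54% of 11436 shared symbols were, and 3 were at least 2-fold lower, where 11.3% were. The median log2 ratio was 0.33 over the neuropeptide genes and -0.12 over all shared symbols. Scaling moved the median of all shared symbols to 0.07 when the sum without the 50 most abundant genes was equalised, and the single ratios move with it. Gapdh, a glycolytic gene abundant in brain, was 6.36 units in the mouse and 1031 in Sham, which limits what a single value says across the species.

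Nts stood furthest apart, at 2.59 units in the mouse and 53.9 in Sham, a log2 ratio of -3.94. Only 0.105% of the shared symbols had a lower ratio. Ranked within each library over the shared symbols, Nts was at percentile 40.5 in the mouse, 92.5 in 2VO and 93.2 in Sham. Slc17a6 and Ntng2, other markers of the subiculum and retrohippocampal cortex, were 3.02 and 18.3 in the mouse and 4.13 and 14.8 in Sham. Fn1 and Tshz2 were higher in the mouse, at 5.31 and 7.95 against 1.31 and 3.81 in Sham. These markers did not share the gap of Nts.

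Pdyn was also lower in the mouse, at 4.57 units against 21.8 in Sham, a log2 ratio of -2.03. Penk did not share this, at 10.97 and 9.78, so the opioid precursors that moved alike between the rats differed between the species. The granule cell marker Prox1 was 17.8 in the mouse and 17.2 in Sham, while C1ql2 was 36.0 and 96.6. Calb1 and Dsp of the same marker list were higher in the mouse, at 35.0 and 6.65 against 25.6 and 1.29 in Sham. Cartpt was 1.06 in the mouse and 4.03 in Sham, a log2 ratio of -1.29.

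Grp was 16.2 units in the mouse and 4.16 in Sham, a log2 ratio of 1.73 exceeded by few shared symbols, since 98.5% had a lower one. Sst was 204 and 96.6, and Npy was 41.9 and 19.9, with log2 ratios of 1.07 and 1.03. Npy per unit of Sst was therefore almost equal in these libraries, at 0.205 in the mouse and 0.206 in Sham. Quotients of genes across the species rest on different annotations and an unstated division by gene length. Cck was 196 and 137, Vip was 9.54 and 5.80, and Cort was 6.70 and 11.99, all within 2-fold. Over the 3 libraries 5 genes were highest in the mouse, 2 in 2VO and 3 in Sham.

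**Figure D5:**
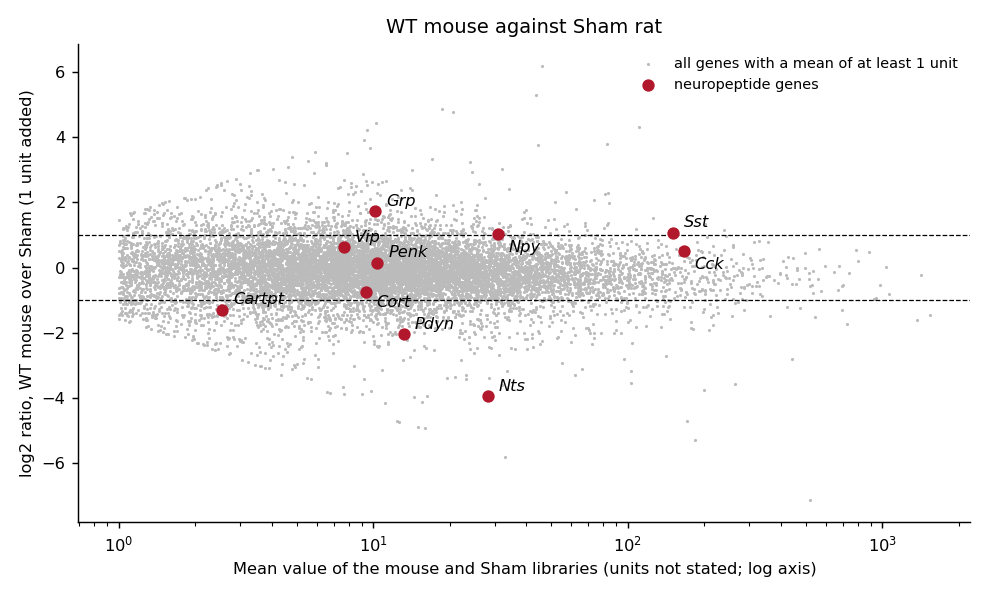
Log2 ratio of the wild-type mouse over the Sham rat (1 unit added) against the mean of these libraries (log axis) for 11436 shared symbols (grey) and the neuropeptide genes (red). Dashed lines mark 2-fold. Nts, Pdyn and Cartpt lie below the lower line and Grp above the upper, while Sst and Npy lie just above it.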

How the data were processed

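Per the labels' protocols, hippocampal RNA was extracted with TRIzol and made into libraries with a TruSeq RNA kit. The submitters' processing notes name fastp 0.21.0, HISAT2 2.1.0, DESeq2 and the genome builds mRatBN7.2 and GRCm39, with no role for any. The quantifier and the annotation were not given in the sources used here. The deposited values are a normalized signal, 1 per gene and library, of an unstated unit. Its lowest values share no common step, so reads were not recovered and no counting interval is given.

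Groups follow the sample titles. The log2 ratio was taken with 1 unit added, over genes averaging 1 unit or more, and no test was run with 1 library per group. The calculation was tested on simulated data with known folds. The neuropeptide genes and lists were chosen with earlier results of these data known. The text names all 10 genes and, of each supporting list, those at least 1.5-fold apart and the 4 highest by mean, while cell type and region markers are given mainly as sums; some genes that this rule takes are left out here. Other genes named beside them, such as receptors and markers, were chosen after their values were seen. Promoter letters come from RefSeq (GRCr8), where 8 of the 10 symbols matched. The alternatives were other scalings, 0.25 or 4 units added, a filter at 5 units or none, a lowess trend (span 0.3), and ratios relative to the pan-GABAergic median. Plain ratios without added units were chosen after seeing the data. Python 3.11.15, pandas 2.3.3, numpy 2.4.6, statsmodels 0.14.6 and matplotlib 3.10.9 were used.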

Additional observations from a re-analysis of the deposited data

How the results depend on the processing

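Between the rats, 98 of 99 ratios of single neuropeptide genes under other settings stayed on their side of 1.5-fold. This total includes the 2 changes of filter, which leave the ratio of a kept gene as it was and so could not move it. The exception was Npy, at -0.66 relative to the pan-GABAergic median. The ratio of Cck, near 0 throughout, ran from -0.19 to 0.05. The ratio of Cartpt ran from -3.43 (no units added) to -0.88 (4 units added), that of Cort from -1.41 to -0.87 and that of Grp from 0.63 to 1.05. With a mean of at least 5 units required, 1 gene was at least 1.5-fold lower instead of 2, since Cartpt was filtered out, and the median of the remaining genes was 0.05. For the mouse against Sham the median of 0.33 became 0.44 with equal upper quartiles, 0.46 with median-of-ratios scaling, 0.54 with equal sums once the 50 most abundant genes were left out, and 0.51 over genes averaging 5 units or more. With 4 units added Npy and Cartpt fell short of 2-fold, at 0.94 and -0.67. No paired analysis was possible because each group holds 1 library. The unknown depth and the single libraries limit every value.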

Other observations

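Receptor and precursor genes outside the set also differed between the species. Of 13 measured receptor genes 5 were at least 2-fold higher in the mouse than in Sham and 0 were lower, where 6.54% and 11.3% of all shared symbols were. Npy2r was 16.8 units in the mouse and 2.04 in Sham, Npy1r was 11.2 and 2.62, and Npy5r was 3.36 and 1.01. Sstr1 was 6.41 and 1.34, and Oprd1 was 3.00 and 0.779. Other neuropeptide precursors went the opposite way, with 0 of 12 measured at least 2-fold higher and 5 lower. Among these Agt was 11.5 in the mouse and 69.1 in Sham, Nmb was 3.01 and 10.3, and Pnoc was 2.74 and 7.79. Nppa, the atrial natriuretic peptide precursor, was 0.357 and 4.97, and Npb was 0.439 and 3.85. These values were picked out after they were seen.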
